A study of Arabidopsis thaliana with 3 samples.

Results

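DCL1 (DICER-LIKE 1, AT1G01040) was examined by PEAT (paired-end analysis of start sites of transcription), an assay that reads the 5′ ends of transcripts. The gene was taken as every row of the deposited table whose transcript identifier starts with AT1G01040. That gave 2 of 14437 table entries, both for isoform 1, which is 1 of 9617 transcripts and 1 of 6814 genes. RNA came from whole 10-day-old wild-type Col-0 seedlings of Arabidopsis thaliana. One library was made from seedlings in white light, 1 after 45 min and 1 after 90 min of light enriched in far-red. The series as a whole concerns a microprotein of the shade avoidance gene ATHB2, and no mutant or overexpression line of it was among these libraries. There were no replicates, so each test below compares 1 library with 1 library, not 1 condition with another, and whether a difference exceeds the spread between seedling samples could not be tested.

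DCL1 is the ribonuclease III enzyme that cuts hairpin precursors in the plant nucleus into microRNA duplexes, with the double-stranded RNA-binding protein HYL1 and the zinc finger protein SERRATE as partners. The RNA of DCL1 is itself known to be cut within its body, which feeds back on its level. The mature message carries a site for miR162, and an intron holds the hairpin of miR838, whose excision cuts the precursor message. In the RefSeq annotation TAIR10.1, the MIR838 gene lies inside the DCL1 gene.

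For each transcript the table holds reads in a first start window, reads in 1 or more second windows that lie further into the transcript, and all reads. DCL1 has 2 second windows, which are far apart. The start-side window lies 177 bases into the coding sequence of 5730 bases and leaves 5553 bases (96.9%) downstream. The end-side window lies 4585 bases into it and leaves 1145 bases (19.98%), so 4408 coding bases separate the windows.

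The length of the coding sequence is at the far end of the table, where 22 of 6814 genes are longer and the median is 1299 bases. Second windows were compared by the percentage of the coding sequence left, and the same percentage covers fewer bases in a shorter gene. One second window that leaves as large a percentage as the start-side window of DCL1 was present in 157 genes (2.30%). One that leaves as little as the end-side window was present in 1433 genes (21.0%), and both were present in 23 genes (0.338%), DCL1 included. The coding length left is divisible by 3 for the start-side window and leaves a remainder of 2 for the end-side window. Over all entries the remainders 0, 1 and 2 made up 35.0%, 32.8% and 32.2%, so these lengths are not bound to a reading frame. Whether a start codon in frame follows either window was not analysed here.

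The protein domains left downstream differ between the windows. The authors' deposited table lists 13 Pfam entries downstream of the start-side window, all with an overlap value of 100. They comprise helicase and helicase-like entries (DEAD/DEAH box helicase, helicase conserved C-terminal domain, type III restriction enzyme res subunit, SNF2 family N-terminal domain), 2 ribonuclease III domains and 2 double-stranded RNA binding motifs. Another entry is a double-stranded RNA binding domain named after Dead end protein, and 3 of the 10 identifiers carry no name in the table, among them that of the PAZ domain, which binds RNA ends. In Dicer enzymes the helicase region contacts the precursor RNA, the paired ribonuclease III domains each cut a strand, and the double-stranded RNA binding motifs hold the substrate.

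Downstream of the end-side window, the authors' deposited table lists 5 Pfam entries. They are 1 ribonuclease III domain, both double-stranded RNA binding motifs, the Dead end protein type domain and an unnamed identifier that is also listed for the start-side window. The coding sequence left by the end-side window thus holds 1 of the 2 ribonuclease III domains and none of the helicase entries, and 8 of the 13 entries lie between the windows. The free text annotation of the table calls the gene DCL2. The locus identifier is that of DCL1 in RefSeq, and the table holds DCL2 (AT3G03300) as a gene of its own.

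**Figure D1:**
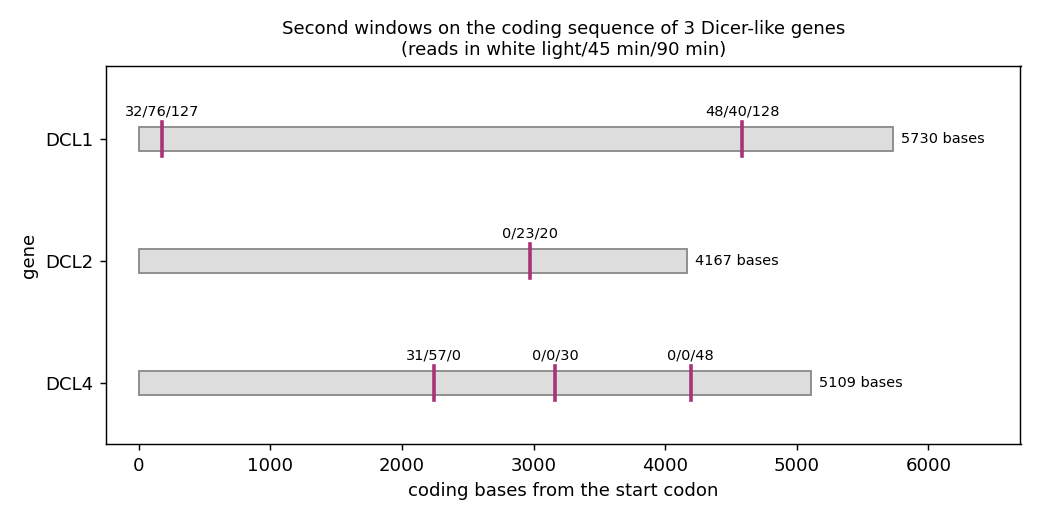
Second windows (red ticks) along the coding sequence (grey bars, in bases from its start) of DCL1, DCL2 and DCL4, with the reads of each window in white light, after 45 min and after 90 min above it. Both windows of DCL1 held reads in all 3 libraries, while each second window of DCL2 and DCL4 held 0 reads in at least 1 library.

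DCL1 had 214 reads in white light, 307 after 45 min and 325 after 90 min. The table held 3440656, 4373900 and 4125024 reads in these libraries, counting 1 transcript per gene, which puts DCL1 at 62.2, 70.2 and 78.8 reads per 1000000 table reads (RPM). The level was lowest in white light and highest after 90 min. On the log2(RPM + 1) scale the ratio to white light was 0.17 after 45 min and 0.34 after 90 min, against medians of -0.03 and -0.001 over all genes. The exact interval of the log2 ratio from the counts ran from -0.08 to 0.43 after 45 min and from 0.09 to 0.60 after 90 min. It covers counting error alone and treats each read as an independent molecule. Reads copied by polymerase chain reaction without molecular identifiers are not, so intervals and p-values from read counts can be too small. DCL1 did not pass a 2-fold change in any pair of libraries, whereas 25.0%, 28.2% and 17.0% of genes did between white light and 45 min, white light and 90 min, and 45 and 90 min. Among genes with at least 100 reads in both libraries of a pair, as DCL1 had, 8.76%, 9.30% and 4.91% did. In RNA of whole seedlings, fewer cells that express a gene and less RNA per cell cannot be told apart.

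The place of the reads differed more between libraries than this total. The first window held 49 reads in white light, 25 after 45 min and 37 after 90 min. The start-side second window held 32, 76 and 127 reads, and the end-side second window 48, 40 and 128. Outside the windows lay 85, 166 and 33 reads. White light was thus highest for the first window, 45 min for reads outside the windows, and 90 min for both second windows.

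**Figure D2:**
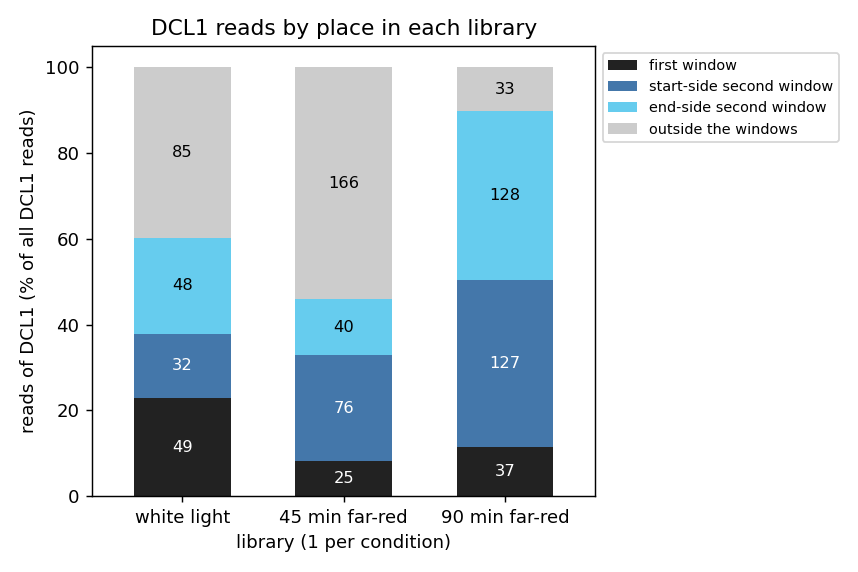
Share of all DCL1 reads (vertical axis, percent) by place in the 3 libraries, 1 per condition, with read counts written in the segments. Reads outside the windows (grey) made up 39.7%, 54.1% and 10.2%, and after 90 min the second windows (blue) held 255 of 325 reads.

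Scaled to table reads, the first window stood at 14.2 RPM in white light, 5.72 after 45 min and 8.97 after 90 min. The white light level was 2.49 times that after 45 min (exact 95% interval from the counts 1.51 to 4.21) and 1.59 times that after 90 min (1.02 to 2.50). The start-side second window went the other way, from 9.30 RPM to 17.4 and 30.8, a ratio to white light of 1.87 (1.22 to 2.92) after 45 min and 3.31 (2.23 to 5.04) after 90 min. The end-side second window stood at 13.95 RPM in white light, 9.15 after 45 min and 31.0 after 90 min. Its ratio to white light was 0.656 after 45 min, with an interval from 0.420 to 1.02 that includes no difference, and 2.22 (1.58 to 3.17) after 90 min. The second windows of DCL1 therefore did not move in step after 45 min, where the start-side window alone was above white light, and both were above it after 90 min.

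**Figure D3:**
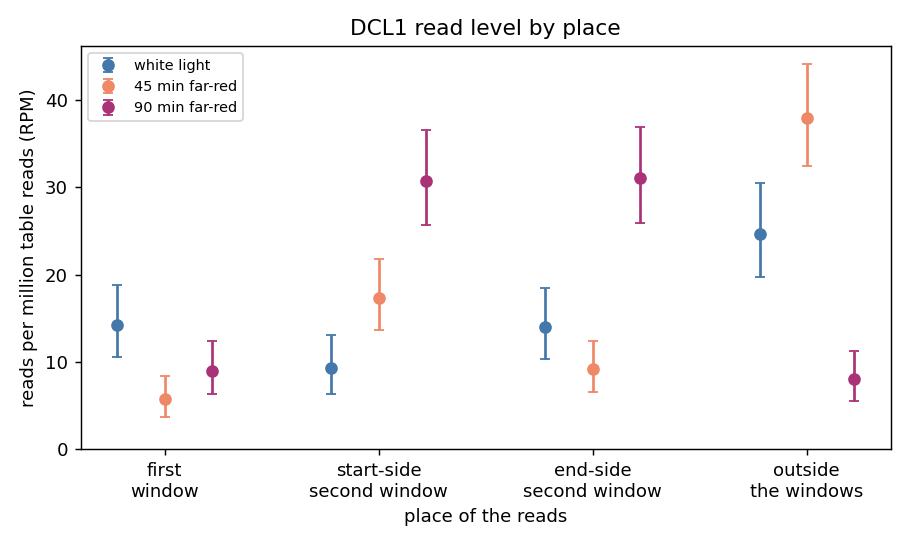
DCL1 reads per 1000000 table reads (vertical axis) by place, for white light, 45 min and 90 min of far-red, with exact 95% Poisson intervals as bars. Both second windows were highest after 90 min, at 30.8 and 31.0 RPM, and reads outside the windows were highest after 45 min, at 37.95 RPM.

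The comparison built into the table is the split of reads between first and second windows. With the second windows summed, their share of DCL1 window reads was 62.0% in white light (80 of 129 reads, with a 95% Wilson interval from 53.4% to 69.9%). It was 82.3% after 45 min (116 of 141, 75.1% to 87.7%) and 87.3% after 90 min (255 of 292, 83.0% to 90.7%). The interval of white light overlapped neither of the far-red intervals, which overlapped each other. The rise of 20.3 points after 45 min had an adjusted p of 3.89e-04, and that of 25.3 points after 90 min an adjusted p of 3.86e-08 (Fisher's exact test, Benjamini-Hochberg over all genes tested). Between 45 and 90 min the share differed by 5.06 points (Fisher's exact test, adjusted p = 0.241).

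A call of this kind was common. The threshold was an adjusted p below 0.05 together with a difference of 10 points or more. Of all genes tested, 65.9% passed after 45 min (31.9% higher, 34.1% lower), 68.1% after 90 min (37.6% and 30.6%) and 57.5% between the far-red libraries (34.6% and 22.8%). Among the 2919 genes within 2-fold of the window depth of DCL1, 51.0% differed by at least as much after 45 min, and 39.0% of 2743 genes did so after 90 min. The rise of the second-window share of DCL1 was therefore of ordinary size for this table.

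Taken singly against the first window, the second windows of DCL1 differed in their course. Single windows were judged by an adjusted p below 0.05 alone, with no minimum difference. The start-side window held 39.5% of the reads of the pair in white light, 75.2% after 45 min and 77.4% after 90 min. The rise passed after 45 min and after 90 min (Fisher's exact test, adjusted p = 4.95e-06 and 4.05e-08 over all entries), and the far-red libraries differed by 2.19 points (Fisher's exact test, adjusted p = 0.892). The end-side window held 49.5%, 61.5% and 77.6%. Its difference of 12.1 points after 45 min did not pass (Fisher's exact test, adjusted p = 0.204), the 28.1 points after 90 min did (Fisher's exact test, adjusted p = 1.20e-05), and so did the 16.0 points from 45 to 90 min (Fisher's exact test, adjusted p = 0.0338). By the adjusted p alone, 65.5% of all entries passed after 45 min, 67.9% after 90 min and 62.3% between the far-red libraries.

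Set against each other, the start-side window held 40.0% of second-window reads in white light (95% Wilson interval 29.96% to 50.96%). It held 65.5% (56.5% to 73.5%) after 45 min and 49.8% (43.7% to 55.9%) after 90 min. The start-side window thus led after 45 min, and the windows were nearly even after 90 min with 127 and 128 reads.

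Reads outside the windows were a large and uneven part of the DCL1 reads. They made up 39.7% in white light (95% Wilson interval 33.4% to 46.4%), 54.1% after 45 min (48.5% to 59.6%) and 10.2% after 90 min (7.32% to 13.9%). The median gene had 8.62%, 20.8% and 14.9%. In white light 10.4% of genes with at least 20 reads had as large a share outside the windows as DCL1, after 45 min 7.03% did, and after 90 min 59.4% did. DCL1 thus lay far above the median gene under white light and at the earlier far-red time, and below it at the later one.

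The share outside the windows rose by 14.4 points after 45 min (Fisher's exact test, adjusted p = 0.00254). From white light to 90 min it fell by 29.6 points (Fisher's exact test, adjusted p = 9.75e-15), and from 45 to 90 min it fell by 43.9 points (Fisher's exact test, adjusted p = 4.13e-32). The same threshold was passed by 51.7% of genes after 45 min, 44.1% after 90 min and 43.8% between the far-red libraries. Rises made up 40.9% of genes from white light to 45 min, and falls 15.4% from white light to 90 min and 30.7% from 45 to 90 min. Among genes as deep as DCL1 to within 2-fold, 42.6% of 2638 differed by at least as much after 45 min, 11.5% of 2593 after 90 min and 0.863% (22 of 2548) between the far-red libraries.

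**Figure D4:**
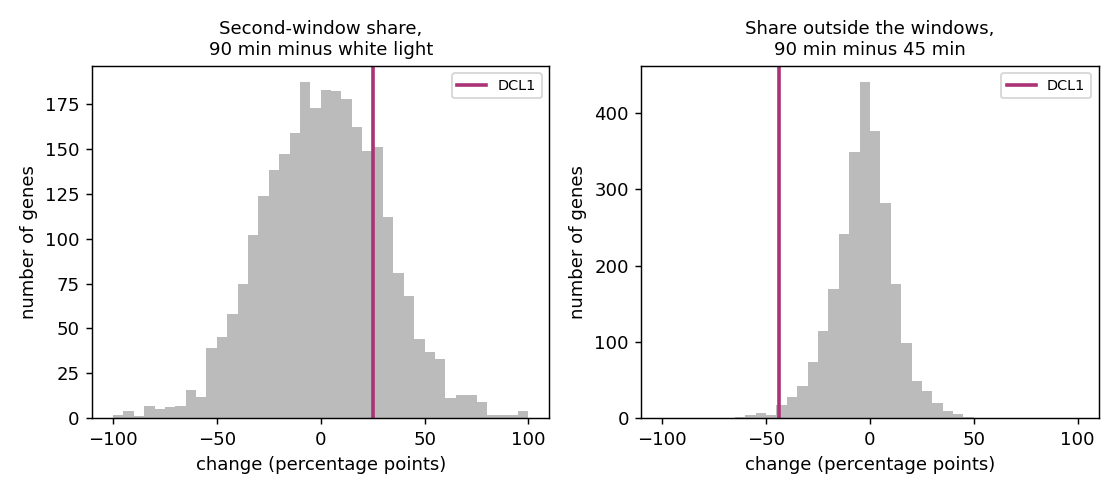
Number of genes (vertical axis) by change in percentage points (horizontal axis), for genes as deep as DCL1 to within 2-fold. DCL1 (red line) lies at 25.3 points within the bulk for second-window share after 90 min against white light (left), and at -43.9 points in the lower tail for the share outside the windows at 90 against 45 min (right).

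Because of these outside reads, the account of DCL1 depends on the denominator. As a share of all DCL1 reads, the second windows held 37.4% in white light (95% Wilson interval 31.2% to 44.0%), 37.8% after 45 min (32.5% to 43.3%) and 78.5% after 90 min (73.7% to 82.6%). White light and 45 min differed by 0.402 points (Fisher's exact test, adjusted p = 1.0). The share after 90 min was 41.1 points above white light and 40.7 points above 45 min (Fisher's exact test, adjusted p = 5.85e-21 and 2.91e-24). Of all genes, 63.8%, 64.5% and 54.3% passed on this denominator. Of the genes of similar depth, 7.44% differed by as much between white light and 90 min and 1.61% between the far-red libraries. The first window held 22.9% of all DCL1 reads in white light (17.8% to 29.0%), 8.14% after 45 min (5.58% to 11.7%) and 11.4% after 90 min (8.37% to 15.3%).

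The table gives no position for reads outside the windows and none on the genome for the windows. Where the end-side window and the outside reads lie relative to the miR162 site or the MIR838 hairpin was therefore not analysed here. Whether reads in the second windows mark starts of transcription or ends of processed DCL1 RNA was not tested. In RefSeq the gene overlaps PPa1 (AT1G01050), a soluble inorganic pyrophosphatase with 168, 145 and 184 reads in the 3 libraries, and a long noncoding RNA (AT1G03993) lies inside it. The PPa1 share of reads outside the windows differed by 29.9 points from white light to 45 min. It differed by -4.87 points from white light to 90 min and by -34.8 points from 45 to 90 min. For DCL1 these differences were 14.4, -29.6 and -43.9 points, and the medians over all genes were 6.78, 1.04 and -2.86 points. The second-window share of PPa1 differed from white light by -17.73 points after 45 min and -13.65 after 90 min. That of DCL1 differed by 20.25 and 25.31 points. From 45 to 90 min the second-window shares differed by 4.08 points for PPa1 and 5.06 for DCL1. The strand used for counting is not given in the sources used here, so reads of overlapping genes could be mixed. Whether DCL1 and PPa1 share reads was not tested. No other gene in the table had the same 3 read totals as DCL1.

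Every DCL1 window held reads in every library, from 25 to 128. Among the 1963 genes with 2 second windows, 729 (37.1%) had reads in all windows of all libraries. Among the 778 of them within 2-fold of the read total of DCL1, 458 (58.9%) did. Reads in all windows were thus frequent at this depth.

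The other Dicer-like genes in the table are DCL2, which makes small RNAs from viral and endogenous double-stranded RNA, and DCL4 (AT5G20320), which makes trans-acting small interfering RNAs. DCL2 has 1 second window, which leaves 1196 of 4167 coding bases (28.7%). As with the end-side window of DCL1, the authors' deposited table lists ribonuclease III and double-stranded RNA binding entries downstream and no helicase entry. The DCL2 first window held 156, 16 and 40 reads and its second window 0, 23 and 20. The 0 reads in white light allow a share of up to 1.92% of window reads, counting error alone. The second-window share of DCL2 rose to 59.0% of 39 window reads after 45 min and 33.3% of 60 after 90 min (Fisher's exact test, adjusted p = 7.34e-19 and 2.02e-12). These shares leave out the reads outside the windows, and DCL2 had 163, 158 and 78 reads in all. Reads outside the windows made up 4.29%, 75.3% and 23.1% of DCL2 reads. They were highest after 45 min, as for DCL1, for DCL4 (19.4%, 26.9% and 21.2%) and for the median gene. For DCL4 neither the 7.57 points from white light to 45 min nor the -5.71 points from 45 to 90 min passed (Fisher's exact test, adjusted p = 0.343 and 0.478).

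DCL4 has 3 second windows, with 2869, 1943 and 916 of 5109 coding bases left. Its first window held 44 reads in white light and 0 in both far-red libraries. By the same limit of 3 reads, this allows up to 5.26% of window reads after 45 min and 3.85% after 90 min. The window with 2869 bases left held 31, 57 and 0 reads, and the others held 0 and 0, then 30 and 48 after 90 min. The second-window share of DCL4 was 41.3% in white light and 100% in both far-red libraries (Fisher's exact test, adjusted p = 3.17e-14 after 45 min and 1.41e-17 after 90 min). DCL1, DCL2 and DCL4 were thus all called higher at both far-red times, as were 31.9% of all genes after 45 min and 37.6% after 90 min. For DCL1 the call after 45 min did not hold with all reads as the denominator (0.402 points, Fisher's exact test, adjusted p = 1.0). The 3 genes share the white light library, so each comparison with it is not a separate sample of seedlings.

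**Figure D5:**
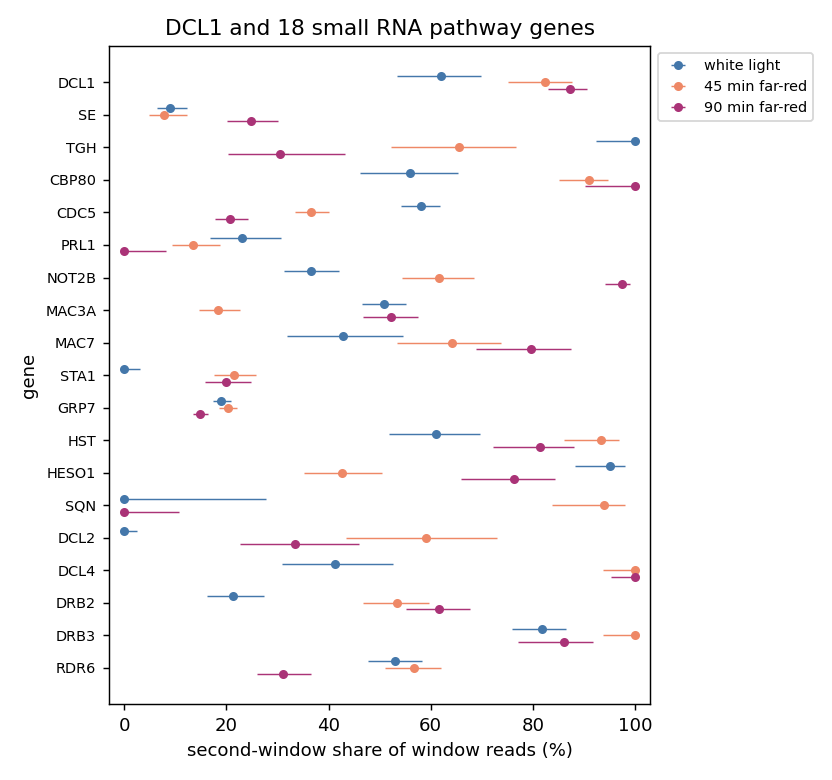
Second-window share of window reads (horizontal axis, percent) of DCL1 and 18 other small RNA pathway genes in white light, after 45 min and after 90 min, with 95% Wilson intervals. DCL1, at 62.0%, 82.3% and 87.3%, had both far-red libraries above white light, while CDC5 had both below it.

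A list of 41 genes of the microRNA and small RNA pathways was set beside DCL1, and the table held 18 besides it. HYL1, AGO1 and HEN1 were among those not analysed here. At 45 min, 13 of 17 genes tested (76.5%) passed the threshold for second-window share, 9 higher and 4 lower, with a median change of 18.2 points against 0 over all genes. At 90 min, 14 of 17 (82.4%) passed, 9 higher and 5 lower, with a median of 15.8 points against 2.42. Between the far-red libraries 12 of 18 (66.7%) passed, 4 higher and 8 lower, with a median of -3.43 points against 2.58. Both directions thus occurred in each pair, and the shares past the threshold stood beside 65.9%, 68.1% and 57.5% over all genes.

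Among the partners of DCL1, SERRATE (SE) had a second-window share of 8.99% in white light, 7.84% after 45 min and 24.8% after 90 min. It rose after 90 min by 15.8 points (Fisher's exact test, adjusted p = 1.63e-07) and differed by -1.15 points after 45 min (Fisher's exact test, adjusted p = 0.805). CBP80, a subunit of the nuclear cap-binding complex, rose from 56.0% to 91.0% and 100%, and DRB2, a relative of HYL1, from 21.3% to 53.3% and 61.6%. CDC5, a splicing-associated Myb protein that binds MIR promoters, fell from 58.0% to 36.6% and 20.8%. TOUGH (TGH), an RNA-binding cofactor of DCL1, fell from 100% of 46 window reads to 65.5% and 30.5%. The partners thus moved in both directions.

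Further along the pathway, HASTY (HST), the exportin-5 relative, rose from 61.1% to 93.3% after 45 min and 81.3% after 90 min. HESO1, which adds uridines to unmethylated small RNAs, fell from 95.2% to 42.7% and 76.2%. RDR6, the RNA-dependent RNA polymerase of trans-acting small interfering RNA synthesis, had 53.0% in white light and 56.6% after 45 min and fell to 31.1% after 90 min. These calls passed the same threshold (Fisher's exact test over all genes), and 7 of the 18 genes had reads in all windows of all libraries.

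For the share outside the windows, 8 of 17 list genes passed after 45 min, 10 of 17 after 90 min and 8 of 18 between the far-red libraries. These shares of 47.1%, 58.8% and 44.4% stood beside 51.7%, 44.1% and 43.8% over all genes. Of the list genes that passed, 5 were higher and 3 lower after 45 min, and 7 and 3 after 90 min. Between the far-red libraries 4 were higher and 4 lower. The median changes of the list were 7.10, 8.47 and 0.079 points, against 6.78, 1.04 and -2.86 over all genes. After 90 min most list genes that passed thus went against DCL1, which fell by 29.6 points. CBP80 fell from 40.5% to 29.1% and 2.78%, the last from 36 reads in all. DRB2 rose from 2.88% to 32.8% after 45 min and stood at 12.8% after 90 min.

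The genes most like DCL1 were sought over 6 values, the second-window share and the share outside the windows in each library, by Euclidean distance in percentage points among 5898 genes with at least 20 window reads in every library. The nearest were AT5G17900, annotated in the table as a microfibrillar-associated protein (distance 22.1), pEARLI4 (AT2G20960, 24.2) and CAD1 (AT1G29690, 24.3), annotated as a perforin domain protein. The median distance was 93.4. AT5G17900 had second-window shares of 61.5%, 78.3% and 84.2% and outside shares of 41.9%, 39.7% and 26.0%. All 3 genes lay above DCL1 in their outside share after 90 min, with 26.0%, 26.8% and 27.7% against 10.2%.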

How the data were processed

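Per the labels' protocols, PEAT libraries followed a published protocol up to circularisation and were finished with a commercial Illumina kit. The submitters' processing notes name FastQC, cutadapt, HISAT2 2.0.5, SAMtools 0.1.19, bedtools 2.17.0, TAIR9 and TAIR10, with no roles. The authors deposited, per the file headers, raw read counts per transcript and window, Fisher p-values with Benjamini-Hochberg values, and fold changes that are ratios of raw counts. Window width, strand, duplicate removal and entry selection are not given in the sources used here. The table is a selection of transcripts, so its totals are not library depth.

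From the counts, 1 transcript per gene was kept (most reads), second windows were summed, and genes with at least 20 reads in both libraries were compared by two-sided Fisher's exact tests with Benjamini-Hochberg adjustment. Reads outside the windows are all reads minus window reads. Levels used a pseudocount of 1 RPM. Recomputed Fisher p-values matched the deposited ones. The tests were also run on simulated counts with counting error alone, which cannot show the spread between seedling samples. Shares carry 95% Wilson intervals. Intervals and limits from a count of 0 (3 reads) cover counting error only. The code used Python 3.11.15 and SciPy 1.17.1. Groups follow the labelled treatment. DCL1 and the pathway list were chosen with earlier results of these data known. By rule, the genes named are DCL1, list genes and the 3 genes nearest in pattern. Genes that overlap DCL1 in RefSeq are named besides. RefSeq TAIR10.1 gave names for all 41 list genes. Alternatives covered read minimum, test, denominator, single windows, minimum change, scaling and pseudocount.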

Additional observations from a re-analysis of the deposited data

How the results depend on the processing

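Of 45 alternatives run on the 15 results for DCL1, 41 kept the direction and the side of the threshold, and none reversed. This count overstates how far the results were tried. Changing the minimum of reads, or the entries over which p was adjusted, left the DCL1 shares and their unadjusted p as they were. Such alternatives could move the adjusted p alone. The alternatives that changed a call all concern the second-window share, with another denominator or with the end-side window alone. The rise after 45 min no longer passed with all reads as the denominator (0.402 points) or with the end-side window alone (12.1 points). The difference between 90 and 45 min, which did not pass with summed windows, passed with all reads as the denominator (40.7 points) and with the end-side window alone (16.0 points). The count of genes changed between the far-red libraries was 3653 and became 2420 with a minimum of 20 points. Genes past 2-fold in read level numbered 1702 after 45 min, 1920 after 90 min and 1161 between the far-red libraries. They numbered 351, 364 and 212 among the genes with at least 100 reads in the lower library, which is 8.76% of 4007, 9.30% of 3913 and 4.91% of 4321 genes, against 25.0%, 28.2% and 17.0% of all genes. The cause was not tested. No other DCL1 isoform was in the table, so that alternative was not run. No paired analysis was possible because the groups hold a single library each, so no replicate could be left out either. The 95% Wilson intervals of DCL1 shares span 6.17 to 23.0 points.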

Other observations

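Read levels of the pathway list were set beside that of DCL1, which did not pass a 2-fold change in any pair of libraries. Past 2-fold against white light were 3 of 18 genes after 45 min (1 higher, 2 lower) and 5 of 18 after 90 min (1 higher, 4 lower). Of all genes 25.0% and 28.2% were past it, and of those with at least 100 reads in both libraries 8.76% and 9.30%. The median log2 ratios of the list were -0.28 and -0.31, against -0.03 and -0.001 over all genes. CBP80 stood at 48.8 RPM in white light, 46.4 after 45 min and 8.73 after 90 min, and DCL2 at 47.4, 36.1 and 18.9 RPM. The dsRNA-binding protein gene DRB3 stood at 57.5, 16.0 and 27.6 RPM. SQN, a cyclophilin that promotes AGO1 function, had 11 reads in white light, 66 after 45 min and 32 after 90 min. Its levels were 3.20, 15.1 and 7.76 RPM. These are single libraries, and no level was tested.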
